A study of Mus musculus with 6 samples.

Results

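Transcripts of 10 genes of the bone morphogenetic protein (BMP) pathway were followed in C2C12 myotubes given the cytokine TWEAK. The 10 genes are the ligand gene Bmp4, the genes of the secreted inhibitors noggin (Nog) and follistatin (Fst), the receptor SMAD gene Smad9, the inhibitory SMAD genes Smad6 and Smad7, and the 4 target genes Id1, Id2, Id3 and Id4. They are 10 of the 49592 genes in the deposited table, found by their symbols. The group was chosen by the FPKM of these same libraries, in which Id1, Id3, Bmp4 and Nog were lower with TWEAK. The values of the 10 genes in the comparison of TWEAK with untreated cells are therefore given as a description, without a test.

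C2C12 is a mouse myoblast line, a single established line, whose cells fuse into multinucleated myotubes when serum is lowered. TWEAK is a member of the TNF family that acts through the receptor Fn14. The TWEAK group held 3 libraries from cells grown in 10% fetal bovine serum, kept for 3 days in 2% horse serum and then given 10 ng/ml TWEAK for 12 h. The untreated group held 3 libraries from cells grown and differentiated in the same way without TWEAK. Libraries were numbered by trial, 1 to 3, in each group, and were made from poly(A) RNA. Whether each trial was a culture of its own is not stated in the labels, and the spread on which the p-values rest may therefore be technical.

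BMPs bind pairs of type I and type II serine/threonine kinase receptors, which phosphorylate SMAD1, SMAD5 and SMAD9. These join SMAD4, enter the nucleus and switch on target genes, of which the Id genes are the best known. Id proteins are helix-loop-helix proteins without a DNA-binding region. They hold the partners of MyoD, the E proteins, in inactive dimers and so keep myoblasts from differentiating. BMP4 keeps C2C12 cells from forming myotubes and can turn them towards bone, and in adult muscle BMP signalling maintains mass. Noggin binds BMPs outside the cell, and SMAD6 and SMAD7 are feedback inhibitors inside it.

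The libraries held 29981125 to 40921035 recovered reads each. Expression is given as FPKM, the reads of a gene per kilobase of its length and of sequencing depth. The 8 myotube markers, among them Acta1 and Myog, summed to 8781 to 9825 FPKM with TWEAK and 9597 to 10676 FPKM in untreated cells, and 2 of them, Myh3 and Actn2, fell at an adjusted p of 0.05 in limma's test on log2(FPKM + 1). Markers of bone cells, which matter here because BMP4 can induce them in C2C12, summed to 5.54 to 5.89 FPKM with TWEAK and 6.38 to 6.66 FPKM untreated, with Ibsp at 0 reads in all libraries. Of 7 bone markers 2 could be tested, and 0 passed with limma, while 1 had an unadjusted p under 0.05. Summed markers of leukocytes reached at most 1.80 FPKM, those of endothelial cells 0.104 FPKM and those of adipocytes 0.0418 FPKM, with Adgre1, Emcn and Plin1 at 0. The 5 fibroblast and adipogenic progenitor markers summed to 59.6 to 63.2 FPKM with TWEAK and 59.8 to 77.5 FPKM untreated. Ly6a carried most of that sum and Cd248 fell, with an adjusted p of 0.0363 that lay between 0.076 and 0.129 without TWEAK replicate 1 or 2 or untreated replicate 2 or 3. The part of these markers in the results was not tested. In such bulk samples, fewer cells of a type and less RNA per cell cannot be told apart.

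In untreated myotubes the mean level of the 10 genes ran from 0.0513 FPKM for Id4 to 44.1 FPKM for Fst. Per length, Fst was the most abundant, followed by Bmp4, Id3, Id1, Id2, Smad7, Nog, Smad6, Smad9 and Id4. The untreated libraries of Id3 and Id1 overlapped in level, as did those of Smad7 and Nog and those of Nog and Smad6, while the libraries of all other neighbours in that order were apart. With TWEAK the order was the same except that Smad6 stood above Nog. The TWEAK libraries of Id3 and Id1 again overlapped, and those of all other neighbours were apart. Id4 and Smad9 lay below the mean of 0.5 FPKM required for testing, which left 8 of the 10 genes.

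In 5 of the 10 genes, Bmp4, Nog, Smad9, Id1 and Id3, every TWEAK library lay below every untreated library. Smad9 was not tested, so 4 of the 8 tested genes had this arrangement, which was found in 15.9% of all 12770 tested genes. Nothing is read from the counts of 5 and 4, because this comparison chose the genes. In 7 of the 10 genes the TWEAK library was lower in each of the 3 trials. The share of all genes with that pattern was not worked out, and nothing is read from this count either. The median log2 difference of the 8 genes was -0.44 as log2(FPKM + 1), where the added 1 makes differences of low genes look smaller, and that of all tested genes was 0.01. Nothing is read from these medians either, because the same comparison chose the genes.

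**Figure D1:**
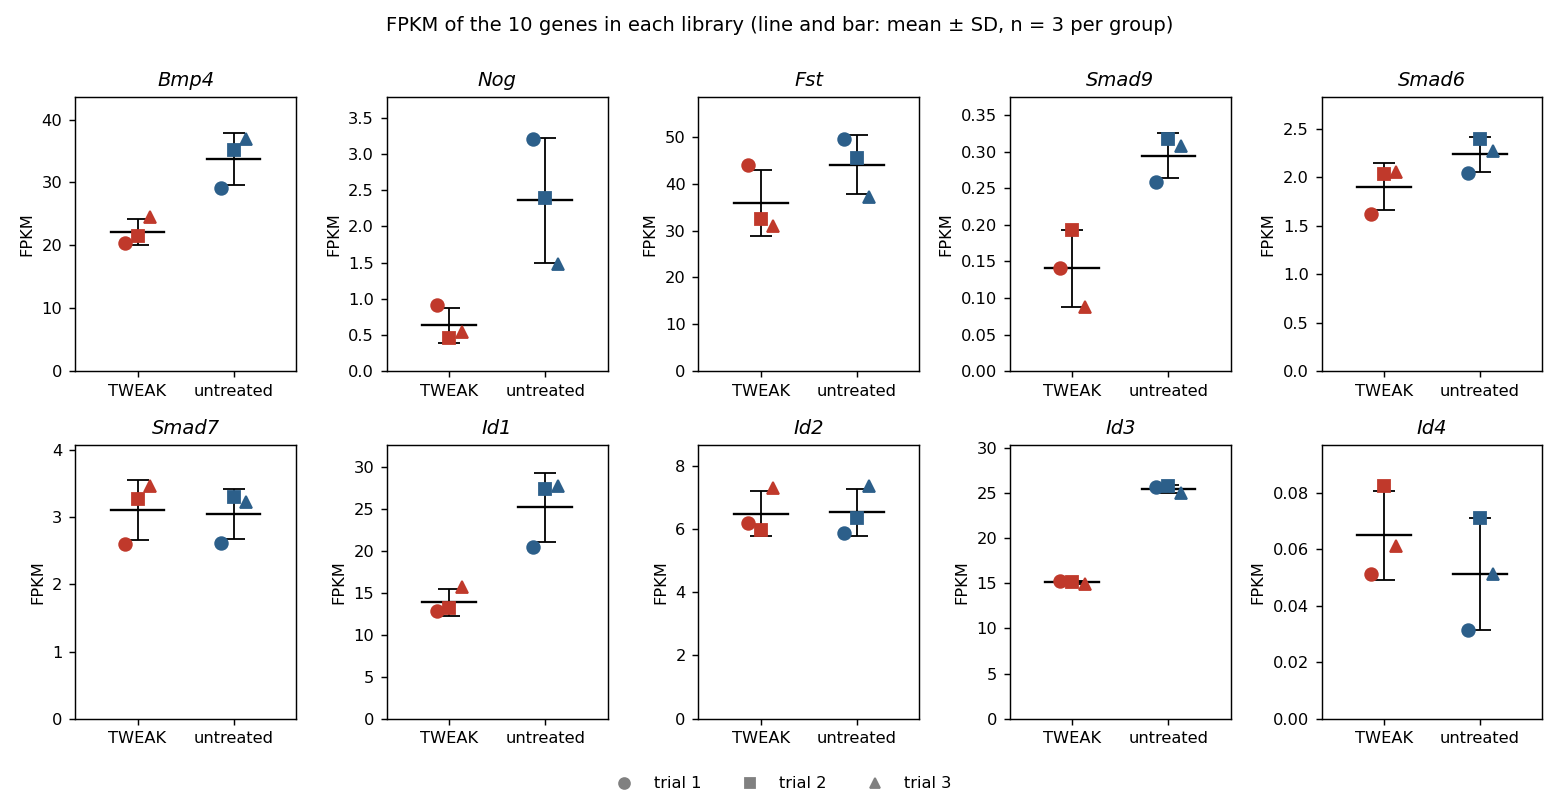
FPKM of each of the 10 genes (y axes, linear and starting at 0) in the 3 TWEAK libraries (left in each panel) and the 3 untreated libraries (right), with the mean and SD of each group and a marker shape for each trial. The groups are apart for Bmp4, Nog, Smad9, Id1 and Id3 and overlap for the other 5 genes.

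Bmp4, the ligand gene of the group (ENSMUSG00000021835.16, GRCm39 chromosome 14, 46620977 to 46628126), was measured at 20.4, 21.5 and 24.5 FPKM in TWEAK replicates 1, 2 and 3, against 29.1, 35.2 and 36.9 FPKM in untreated replicates 1, 2 and 3. The highest TWEAK library was below the lowest untreated one, and the mean was 22.1 ± 2.12 FPKM with TWEAK and 33.7 ± 4.13 FPKM untreated (SD, n = 3 each), 1.52-fold lower. The log2 difference was -0.58 (SE 0.10). Within trials 1, 2 and 3 the TWEAK library was at 0.702, 0.611 and 0.663 of its untreated partner. These values rest on 4328 reads with TWEAK and 7460 untreated. The long noncoding RNA gene Gm15222, at 0.816 FPKM, overlaps Bmp4, and whether counting used the strand is not given in the sources used here.

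Nog encodes noggin, which binds BMP4 and keeps it from its receptors (ENSMUSG00000048616.5, GRCm39 chromosome 11, 89191464 to 89193158). It was at 0.912, 0.458 and 0.535 FPKM with TWEAK and at 3.21, 2.39 and 1.48 FPKM in untreated cells. Among the 10 genes it showed the largest fold between groups whose libraries did not overlap, 0.635 ± 0.243 FPKM with TWEAK and 2.36 ± 0.863 FPKM untreated (SD, n = 3 each), 3.72-fold lower. The log2 difference was -1.02 (SE 0.18) with a pseudocount of 1 FPKM. TWEAK libraries were at 0.284, 0.192 and 0.360 of their untreated partners. The reads were few, 47, 27 and 27 with TWEAK and 180, 133 and 102 untreated. The ratio of pooled reads per library size was 0.273, with a 95% exact interval of 0.217 to 0.340 that covers counting error only. Library size in this and later read ratios is the scale recovered from the FPKM, not the total of reads.

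Ligand and inhibitor transcripts were thus both lower, and by unequal factors. The ratio of Bmp4 to Nog FPKM was 22.4, 46.9 and 45.8 with TWEAK and 9.05, 14.7 and 24.9 untreated. It was higher with TWEAK in each trial, but the groups overlapped, since the first TWEAK library lay below the third untreated one. Follistatin, which binds activins and, less tightly, BMPs, was the most abundant transcript of the 10 (Fst, ENSMUSG00000021765.10, GRCm39 chromosome 13, 114588826 to 114595487). It was at 43.9, 32.5 and 31.1 FPKM with TWEAK and at 49.6, 45.5 and 37.1 FPKM untreated, with means of 35.8 ± 7.03 and 44.1 ± 6.34 FPKM (SD, n = 3 each). In each trial the TWEAK library was the lower one, at 0.886, 0.715 and 0.836 of its partner. Trial 1 was high and trial 3 low in both groups, which therefore overlapped.

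**Figure D2:**
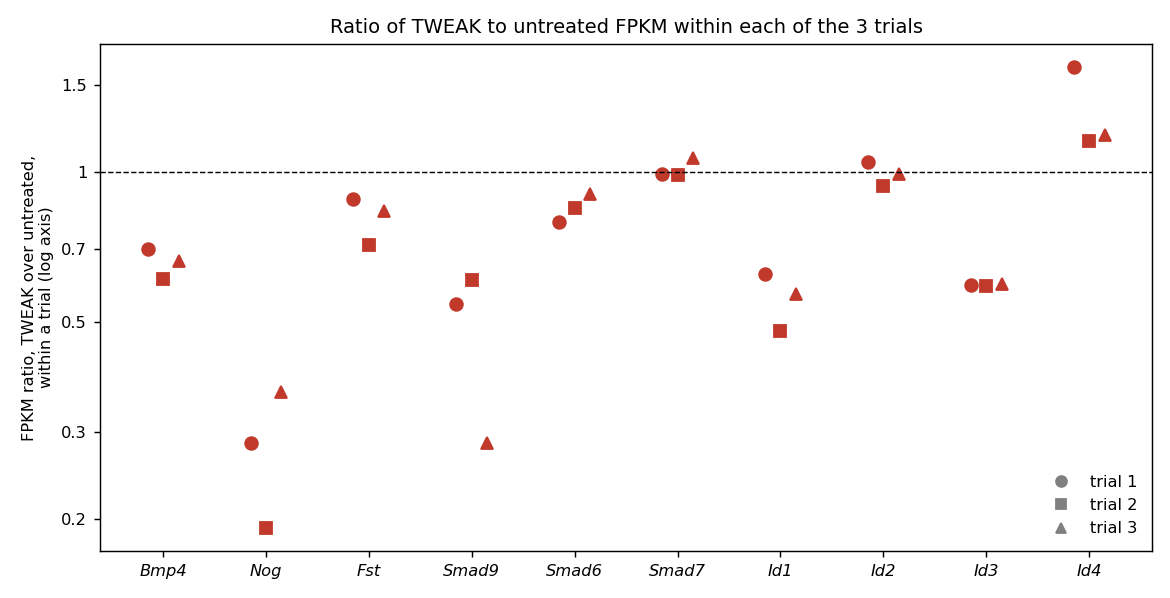
FPKM of the TWEAK library divided by that of the untreated library of the same trial (y axis, log scale) for each of the 10 genes, with a marker shape for each trial and a line at a ratio of 1. Id3 lies between 0.591 and 0.597 in all trials, Nog between 0.192 and 0.360, and Id2 and Smad7 lie on both sides of 1.

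Of the SMAD genes in the group, Smad9 encodes one of the SMADs that BMP receptors phosphorylate (ENSMUSG00000027796.3, GRCm39 chromosome 3, 54663003 to 54708678). It was at 0.141, 0.193 and 0.0875 FPKM with TWEAK and at 0.259, 0.317 and 0.308 FPKM untreated. The groups did not overlap, and the mean was 0.140 ± 0.0527 FPKM with TWEAK and 0.295 ± 0.0313 FPKM untreated (SD, n = 3 each). The count was 73 reads with TWEAK and 169 untreated, a ratio per library size of 0.484 (95% exact interval 0.363 to 0.641). For comparison of levels per length, the means of Smad1, Smad5 and Smad4 were 9.13 to 19.2 FPKM untreated.

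Smad6 encodes the inhibitory SMAD that acts mainly on BMP signalling (ENSMUSG00000036867.8, GRCm39 chromosome 9, 63860358 to 63929341). It was at 1.63, 2.03 and 2.06 FPKM with TWEAK and at 2.04, 2.40 and 2.27 FPKM untreated, 1.91 ± 0.241 and 2.24 ± 0.179 FPKM on average (SD, n = 3 each). The groups overlapped by a single untreated library. Smad7, whose product inhibits BMP and TGF-beta signalling (ENSMUSG00000025880.12, GRCm39 chromosome 18, 75500600 to 75529006), was at 2.61, 3.27 and 3.46 FPKM with TWEAK and 2.62, 3.30 and 3.23 FPKM untreated. Its log2 difference was 0.02 (SE 0.11), and the libraries of the first trial were the lowest in both groups. The ratio of Smad6 to Smad7 was 0.624, 0.622 and 0.594 with TWEAK and 0.780, 0.726 and 0.703 untreated, with no overlap between groups.

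The 4 Id genes did not move alike. Id1, the Id gene most used as a readout of BMP signalling (ENSMUSG00000042745.10, GRCm39 chromosome 2, 152578171 to 152579330), was at 12.8, 13.1 and 15.7 FPKM with TWEAK and at 20.5, 27.4 and 27.7 FPKM untreated. The groups were apart, with means of 13.9 ± 1.60 FPKM with TWEAK and 25.2 ± 4.10 FPKM untreated (SD, n = 3 each), 1.81-fold lower and a log2 difference of -0.81 (SE 0.12). Within trials, the TWEAK library was at 0.625, 0.479 and 0.568 of its partner. The reads behind Id1 were 1524 with TWEAK and 3132 untreated.

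Id3 showed the tightest values of the 10 genes (ENSMUSG00000007872.4, GRCm39 chromosome 4, 135870808 to 135873066). It was at 15.2, 15.2 and 14.9 FPKM with TWEAK and at 25.7, 25.8 and 25.0 FPKM untreated. The means were 15.1 ± 0.176 and 25.5 ± 0.435 FPKM (SD, n = 3 each), so the coefficient of variation was 1.16% with TWEAK and 1.71% untreated. Id3 was 1.69-fold lower, with a log2 difference of -0.72 (SE 0.06) and trial ratios of 0.592, 0.591 and 0.597. It rested on 1836 reads with TWEAK and 3465 untreated.

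Id2, which encodes a protein of the same family (ENSMUSG00000020644.10, GRCm39 chromosome 12, 25143798 to 25147139), was at 6.19, 5.97 and 7.31 FPKM with TWEAK and at 5.89, 6.37 and 7.35 FPKM untreated. The groups overlapped throughout, with means of 6.49 ± 0.718 and 6.54 ± 0.744 FPKM (SD, n = 3 each) and a log2 difference of -0.01 (SE 0.10). Id4 (ENSMUSG00000021379.3, GRCm39 chromosome 13, 48414704 to 48419502) was barely detected, with 6, 11 and 7 reads with TWEAK and 4, 9 and 8 untreated. The ratio of its pooled reads per library size was 1.28, and the 95% exact interval was 0.683 to 2.42. The interval holds 1 and covers counting error only, not the spread between libraries. The ratios of pooled reads of Id1 and Id3 were 0.546 and 0.594, and whether Id4 differed from them was not tested.

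Because Id1 and Id3 were lower and Id2 was not, both the amount and the makeup of Id transcripts differed. The 4 genes summed to 34.3, 34.4 and 38.0 FPKM with TWEAK and to 52.1, 59.6 and 60.1 FPKM untreated, 1.61-fold lower on average. Id2 made up 18.1%, 17.4% and 19.2% of that sum with TWEAK and 11.3%, 10.7% and 12.2% untreated, with no overlap. The ratio of Id1 to Id3 was 0.839, 0.864 and 1.05 with TWEAK and 0.795, 1.06 and 1.11 untreated, and there the groups overlapped.

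**Figure D3:**
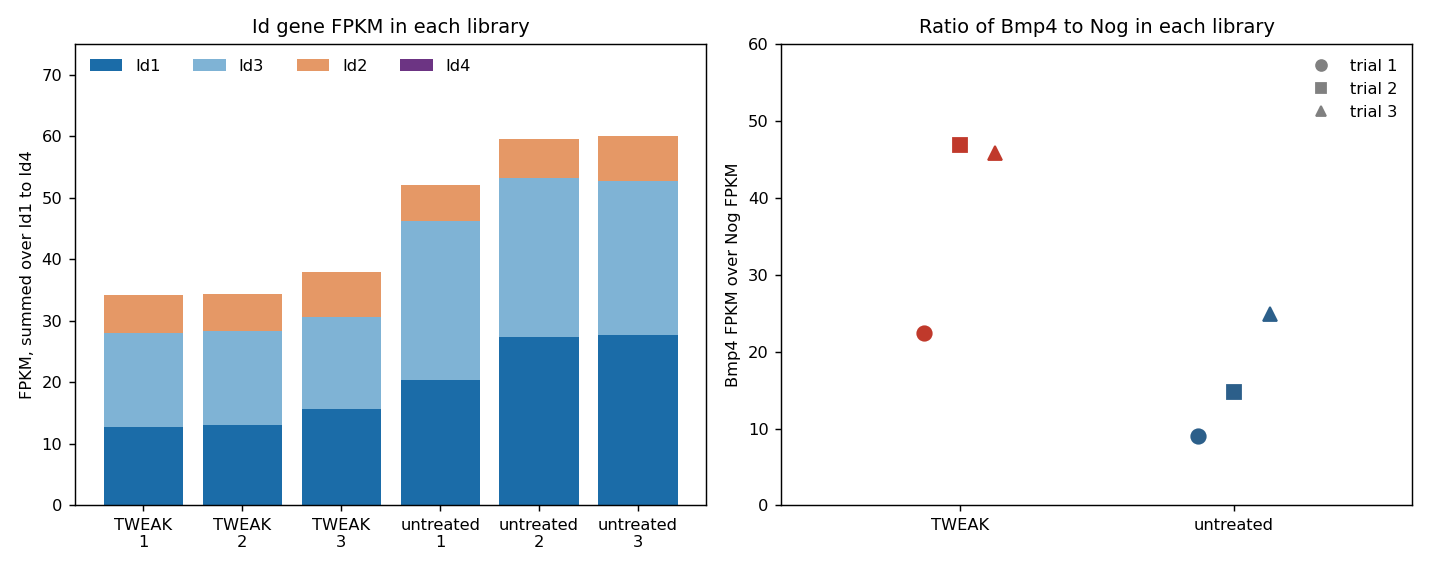
Summed FPKM of Id1, Id2, Id3 and Id4 in each library (stacked bars from 0, left) and the ratio of Bmp4 to Nog FPKM in each library (points, right), TWEAK libraries before untreated ones. The sums are 34.3 to 38.0 FPKM with TWEAK and 52.1 to 60.1 FPKM untreated, the Id2 layer is about as thick in both groups, and the Id4 layer is too thin to be seen.

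The promoters of Id3 and Bmp4, which were lower, and of Id2, which was not, are shown so that the letters upstream of each can be read beside the values. RefSeq held promoter sequences for 6 of the 10 genes, Bmp4, Smad9, Smad6, Id2, Id3 and Id4. Id1, Nog, Fst and Smad7 had no entry there. Each sequence gives the 250 bases before the annotated start, 5′ to 3′ on the gene's own strand, in GRCm38.p6. Capitals mark GGCGCC and CAGAC, which are known as letters that SMAD proteins bind, and the E-box CANNTG, which E proteins and MyoD bind, on either strand. The windows are chr4:136143572-136143821 (plus strand) for Id3, chr14:46390670-46390919 (minus strand) for Bmp4 and chr12:25096093-25096342 (minus strand) for Id2.
Id3: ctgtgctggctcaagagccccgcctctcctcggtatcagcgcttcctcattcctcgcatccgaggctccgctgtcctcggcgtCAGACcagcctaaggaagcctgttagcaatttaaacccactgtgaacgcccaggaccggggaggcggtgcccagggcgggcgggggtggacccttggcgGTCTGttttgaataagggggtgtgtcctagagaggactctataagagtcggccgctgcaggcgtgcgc
Bmp4: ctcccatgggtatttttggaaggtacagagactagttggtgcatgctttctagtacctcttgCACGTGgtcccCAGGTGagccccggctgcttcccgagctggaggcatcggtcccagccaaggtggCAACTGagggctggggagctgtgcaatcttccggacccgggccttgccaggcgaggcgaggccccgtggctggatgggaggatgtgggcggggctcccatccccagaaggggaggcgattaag
Id2: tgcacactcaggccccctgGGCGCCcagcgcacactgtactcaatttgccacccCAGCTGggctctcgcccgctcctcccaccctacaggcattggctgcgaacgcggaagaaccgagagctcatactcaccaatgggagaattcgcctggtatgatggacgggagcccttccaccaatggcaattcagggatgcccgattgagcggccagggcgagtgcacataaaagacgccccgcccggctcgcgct

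The Id3 window held CAGAC at 2 places, its matches starting 167 and 68 bases before the start, and no E-box. The Bmp4 window held the E-box at 3 places, 188, 177 and 123 bases before the start, and neither of the other motifs. The Id2 window held GGCGCC once, 231 bases before the start, and the E-box once, 196 bases before it. Of the remaining windows, Smad9 held GGCGCC and the E-box once each, Id4 held GGCGCC once, and Smad6 held none of these motifs. The NF-kB motif, searched because TWEAK is known to activate NF-kB, was in none of the 6 windows. Among 32851 RefSeq windows of this length, GGCGCC was in 9.59%, CAGAC in 42.2%, the E-box in 66.2% and the NF-kB motif in 7.25%. These shares are not matched for base content. The 6 windows held 62.8% to 75.6% G and C, the only letters of GGCGCC, and the median of all windows was 52.4%. A match is a string of letters and not a bound site, and these short windows leave out the distal enhancers of the Id genes.

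The other genes of the pathway were then tested, which asks what else of BMP signalling moved with TWEAK. Of 70 further BMP genes, 43 were expressed highly enough to be tested. Transcripts of 2 rose and those of 5 fell at an adjusted p of 0.05 in limma's test on log2(FPKM + 1). That is 16.3% of the 43 against 15.1% of all tested genes, of which 8.98% were higher and 6.1% lower, and the median log2 difference was -0.11 against 0.01. Of the 43 genes, 32 had a difference below 0, 74.4%, compared with 47.7% of all tested genes. With a replicate block for trials in the model, 3 rose and 10 fell, while 27.9% of all genes passed. The genes that passed with the block alone were Gdf5, Bmpr2, Chrd, Smurf2 and Dlx3, lower with TWEAK, and Smurf1, higher. They are named here after their values were seen.

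Extracellular regulators made up most of the calls, with 2 higher and 2 lower among 10 tested of 18. Grem1 encodes gremlin, an inhibitor that binds BMP2 and BMP4 (ENSMUSG00000074934.4, GRCm39 chromosome 2, 113576509 to 113588991). It was at 91.5, 107 and 127 FPKM with TWEAK and at 54.6, 55.0 and 67.9 FPKM untreated. It rose 1.83-fold, to 108 ± 17.6 FPKM with TWEAK, against 59.2 ± 7.59 FPKM untreated (SD, n = 3 each), with a log2 difference of 0.86 (SE 0.13, limma adjusted p = 0.00299). Nbl1, which encodes DAN of the same inhibitor family, was at 132, 143 and 160 FPKM with TWEAK and at 107, 110 and 107 FPKM untreated, and rose 1.34-fold (limma adjusted p = 0.0104). The direction of both was opposite to that of Nog, and both were far more abundant per length than Nog in every library.

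Bmper, which encodes a secreted protein that binds BMP4, fell 1.44-fold, to 9.40 ± 1.35 FPKM with TWEAK, against 13.6 ± 2.41 FPKM untreated (SD, n = 3 each; limma adjusted p = 0.0372). Without TWEAK replicate 1 or 2 or untreated replicate 2 or 3 its adjusted p was 0.0772, 0.127, 0.111 and 0.106. Fstl3, a relative of follistatin, fell 1.24-fold, to 13.6 ± 0.769 FPKM with TWEAK, against 16.8 ± 1.57 FPKM untreated (limma adjusted p = 0.046). That call was lost without any single library other than TWEAK replicate 3 (adjusted p from 0.0587 to 0.138). The most abundant uncalled genes of this list were Fstl1, at 173 ± 32.0 FPKM with TWEAK and 160 ± 31.8 FPKM untreated, and Bmp1, a protease that cleaves chordin, at 39.8 ± 0.564 and 39.1 ± 1.89 FPKM. Tll1, which encodes a relative of that protease, lay below the level for testing and was singled out after its values were seen. It had 42 reads with TWEAK and 203 untreated, a ratio of 0.232 per library size (95% exact interval 0.162 to 0.325). That interval covers counting error only, not the spread between libraries.

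**Figure D4:**
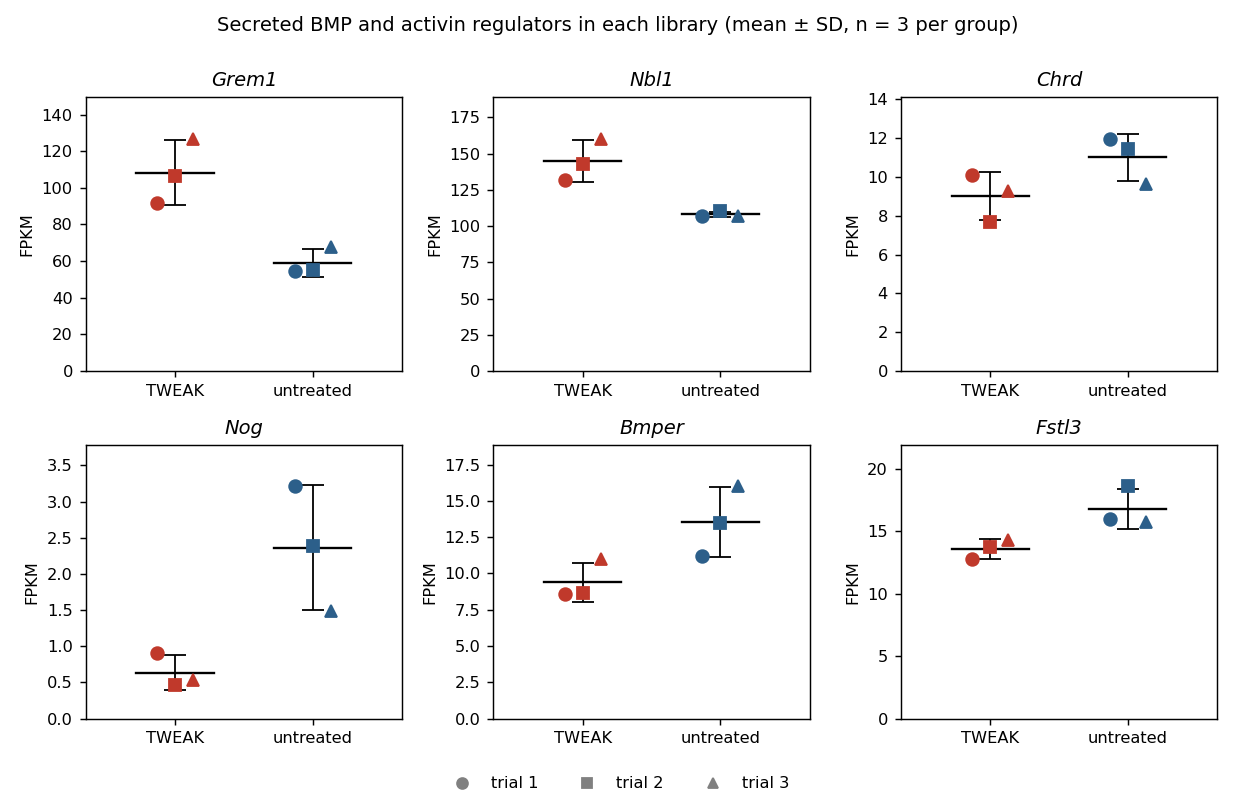
FPKM (y axes, linear and starting at 0) of 6 secreted regulators of BMPs and activins in the 3 TWEAK libraries (left) and the 3 untreated libraries (right), with mean and SD and a marker shape for each trial. Grem1 and Nbl1 are higher in every TWEAK library, Nog, Bmper and Fstl3 are lower in every one, and the groups overlap for Chrd.

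Among the 9 tested receptors and co-receptors of 11, 2 fell and 0 rose by limma-trend, and 6 had an unadjusted p under 0.05, 0 of them higher. Acvr2a, a type II receptor for activins and BMPs, was at 6.79 ± 0.420 FPKM with TWEAK and 8.51 ± 0.571 FPKM untreated (SD, n = 3 each), 1.25-fold lower (limma adjusted p = 0.0377). The call was lost without any single library other than TWEAK replicate 3 (adjusted p from 0.0502 to 0.153), and Acvr2a overlaps Orc4, which was at 11.2 FPKM. Rgma, which encodes a membrane-anchored BMP co-receptor, was at 7.76 ± 0.203 FPKM with TWEAK and 10.5 ± 1.09 FPKM untreated, 1.35-fold lower (limma adjusted p = 0.0138). Without TWEAK replicate 2, untreated replicate 1 or untreated replicate 2, the adjusted p for Rgma was 0.0612, 0.0568 and 0.0535. The type I receptor gene Bmpr1a was at 20.3 ± 0.287 FPKM with TWEAK and 23.1 ± 1.80 FPKM untreated, and the co-receptor gene Hjv (hemojuvelin) at 155 ± 11.7 and 176 ± 3.48 FPKM. Neither passed (limma adjusted p = 0.135 for both).

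Among the transducers, Smad4, which encodes the partner shared with TGF-beta signalling, was at 19.1 ± 0.647 FPKM with TWEAK and 19.2 ± 0.760 FPKM untreated (SD, n = 3 each; limma adjusted p = 0.913), and Smad5 at 11.9 ± 0.986 and 12.4 ± 0.825 FPKM. Of 3 tested genes of this list 0 passed at an adjusted p of 0.05 by limma-trend or limma-voom, and 0 had an unadjusted p under 0.05. Of 12 intracellular regulators 0 passed by either tool and 5 had an unadjusted p under 0.05, 2 of them higher. In that list, the immunophilin gene Fkbp1a was at 117 ± 8.13 FPKM with TWEAK and 112 ± 11.2 FPKM untreated, and Tob1, whose product restrains BMP SMADs in bone cells, at 77.5 ± 4.59 and 87.4 ± 2.35 FPKM. With the block, Smurf1 and Smurf2, whose products are ubiquitin ligases for SMADs, passed in opposite directions (limma adjusted p with the replicate block, 0.0105 higher and 0.0398 lower). Of 14 other BMP and GDF ligand genes, 11 lay below the level for testing, Bmp2 and Bmp7 among them, and 0 of the other 3 passed or had an unadjusted p under 0.05. The most abundant were Gdf15, at 1.87 to 3.09 FPKM with TWEAK and 2.03 to 3.68 FPKM untreated, and Gdf5, at 1.52 ± 0.389 FPKM with TWEAK and 2.09 ± 0.560 FPKM untreated. Bmp4 was thus the most abundant transcript per length among the BMP and GDF ligand genes of these lists in both groups.

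Of the target genes outside the Id family, 6 of 12 were tested and Atoh8 fell. Atoh8 encodes a bHLH factor and is a direct target of BMP SMADs in several cell types (ENSMUSG00000037621.9, GRCm39 chromosome 6, 72183161 to 72212561). It was at 2.28, 1.92 and 2.25 FPKM with TWEAK and at 3.39, 3.85 and 3.29 FPKM untreated. The groups were apart, with means of 2.15 ± 0.200 FPKM with TWEAK and 3.51 ± 0.300 FPKM untreated (SD, n = 3 each), 1.63-fold lower (log2 difference -0.52, SE 0.09, limma adjusted p = 0.0057). Atoh8, Grem1 and Nbl1 kept their calls without any 1 library, with adjusted p at most 0.0305, 0.0225 and 0.0421. Fbxo30, a ubiquitin ligase gene repressed by BMP signalling in muscle, was at 14.5 ± 0.833 FPKM with TWEAK and 12.4 ± 1.53 FPKM untreated (limma adjusted p = 0.16). Runx2, the bone transcription factor gene, was at 2.81 ± 0.183 FPKM with TWEAK and 3.39 ± 0.221 FPKM untreated (limma adjusted p = 0.124).

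**Figure D5:**
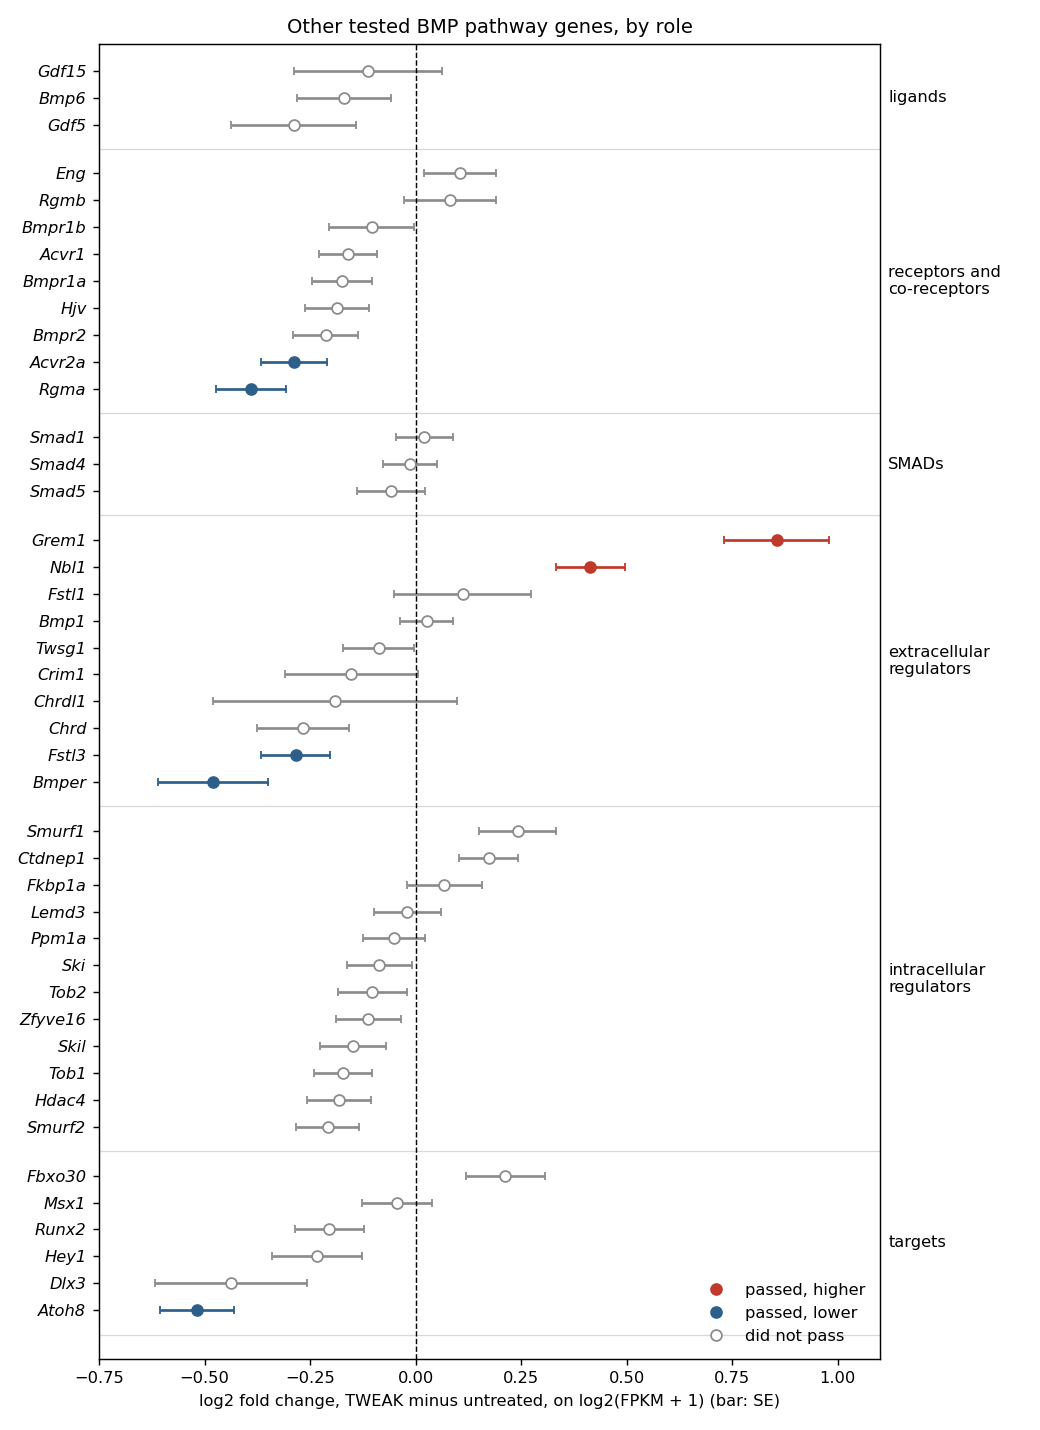
Log2 difference between TWEAK and untreated libraries on the log2(FPKM + 1) scale, with its standard error, for the tested genes of the other BMP pathway lists. Grem1 and Nbl1 stand above 0 and Atoh8, Bmper, Rgma, Acvr2a and Fstl3 below it among those that passed.

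The activin, myostatin and TGF-beta branch, which shares SMAD4 and several receptors and inhibitors with the BMP branch, had 2 genes that rose and 4 that fell among 17 tested of 19, and 2 and 6 with the replicate block. The 2 that fell with the block alone were Ccn2, a matrix protein gene, and the receptor gene Tgfbr1 (limma adjusted p with the block, 0.000317 and 0.0142), named after their values were seen. Inhba, which encodes the activin A subunit that follistatin binds, fell 1.67-fold, to 6.86 ± 0.469 FPKM with TWEAK, against 11.5 ± 1.48 FPKM untreated (SD, n = 3 each; limma adjusted p = 0.00302). Tgfb3, a TGF-beta ligand gene, fell 1.62-fold and Gdf11, which encodes a close relative of myostatin, fell 1.40-fold (limma adjusted p = 0.00392 and 0.0046). Tgfb3 overlaps Ttll5, which was at 7.69 FPKM. The receptor gene Tgfbr2 fell 1.23-fold and Tgif1, a corepressor gene, rose 1.20-fold (limma adjusted p = 0.0305 and 0.0274). Both of these calls depended on single libraries. For Tgfbr2 the adjusted p was 0.124, 0.0658, 0.107 and 0.105 without TWEAK replicate 2 or 3 or untreated replicate 1 or 2. For Tgif1 it was 0.0672 to 0.104 without any library other than TWEAK replicate 3. The most abundant uncalled genes were Pmepa1, a TGF-beta feedback inhibitor, at 73.9 ± 3.89 FPKM with TWEAK and 81.1 ± 1.46 FPKM untreated, and Tgfb1, at 33.9 ± 3.39 and 31.7 ± 1.53 FPKM.

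The bHLH genes whose products Id proteins bind or compete with had 2 that rose and 4 that fell among 9 tested of 12, and 3 and 5 with the replicate block. Of the E protein genes, Tcf3 rose 1.23-fold (limma adjusted p = 0.0357), while Tcf4 fell 1.41-fold and Tcf12 fell 1.20-fold (limma adjusted p = 0.00748 and 0.0386). Myod1, the myogenic master factor gene, was at 72.9 ± 3.30 FPKM with TWEAK and 90.7 ± 3.27 FPKM untreated (SD, n = 3 each; limma adjusted p = 0.0142). Myf5, its relative in early myoblasts, fell 1.51-fold, to 3.10 ± 0.295 FPKM with TWEAK, against 4.66 ± 0.160 FPKM untreated (limma adjusted p = 0.00622). Myogenin, which drives terminal differentiation, did not pass, with Myog at 826 ± 66.7 FPKM with TWEAK and 706 ± 94.6 FPKM untreated (limma adjusted p = 0.221), nor did Twist2, a repressor of myogenesis, at 2.18 ± 0.321 and 1.56 ± 0.320 FPKM (limma adjusted p = 0.105). With the block Twist2 passed (limma adjusted p = 0.0129), and its TWEAK libraries were at 1.53, 1.23 and 1.48 times their untreated partners. Myf6, a late myogenic factor gene named after its values were seen, fell with the block (limma adjusted p = 0.0129). Msc, which encodes the repressor musculin, rose to 0.817 ± 0.0801 FPKM with TWEAK, against 0.416 ± 0.0365 FPKM untreated (limma adjusted p = 0.0222). The call of Tcf3 was lost when TWEAK replicate 2, untreated replicate 1 or untreated replicate 3 was left out (adjusted p of 0.15, 0.107 and 0.104), and that of Myod1 when TWEAK replicate 2, untreated replicate 1 or untreated replicate 2 was left out (0.0801, 0.0597 and 0.0579). The Tcf12 call was lost without any library other than TWEAK replicate 1 (0.0727 to 0.132), and the Msc call without any other than TWEAK replicate 3 (0.0565 to 0.0794). Tcf4 and Myf5 kept their calls without any 1 library.

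Genes of the whole table were ranked by how like they were to Id1, Id3, Bmp4 and Nog over the 6 libraries, as the root mean square difference in log2(FPKM + 1) after each gene's own mean was removed. The ranking holds 11623 genes with a mean of at least 1 FPKM. Predicted gene models and the 10 genes themselves were passed over when the nearest genes were named, so that B4galnt3 below is 4th from Id3 among all. The ranking reads the same libraries that chose the group, so it is a description. Bmp4 was most like Pdgfrb, a receptor gene for platelet-derived growth factor, with a difference of 0.0267. Pdgfrb was at 45.5 ± 3.46 FPKM with TWEAK and 69.5 ± 8.47 FPKM untreated (SD, n = 3 each), 1.53-fold lower, close to the 1.52-fold of Bmp4. The next were Piezo2, a mechanosensitive channel gene, and Hbegf, a ligand gene of the EGF receptor (0.0545 and 0.0552).

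Id1 was nearest to Insc, Mss51 and Prelp (0.0551, 0.0659 and 0.0797), and Id3 to Adgrg3, Tmx4 and B4galnt3 (0.0536, 0.0606 and 0.0627). Mss51 is a muscle-enriched gene and Prelp encodes a matrix proteoglycan. Nog had no neighbour as near, the first being Myl2, a slow and cardiac myosin light chain gene, Padi2, a peptidylarginine deiminase gene, and Krt80, a keratin gene (0.153, 0.154 and 0.169). Among the group itself, Bmp4 ranked 17th from Id1 and Id3 ranked 74th. From Bmp4, Id1 ranked 76th and Id3 200th. From Bmp4, Nog was far, at rank 9668 of 11623. From Nog, the closest of the group was Id3, at rank 86, followed by Fst at 363, Id1 at 506 and Bmp4 at 697. The measure also reads the size of the difference between groups, a log2 difference of -1.02 for Nog and -0.58 for Bmp4. Nog was highest in the first untreated library, where Bmp4 and Id1 had their lowest untreated values, so Nog shared with them the difference between groups and not the order of the untreated trials.

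In the authors' deposited table, whose fit may have held more libraries than these 6, the log2 fold change was -0.61 (SE 0.10) for Bmp4, -1.90 (SE 0.39) for Nog, -0.86 (SE 0.13) for Id1, -0.75 (SE 0.08) for Id3 and -1.06 (SE 0.30) for Smad9. For Nog it lies further from 0 than the -1.02 given above, which carries the pseudocount of 1 FPKM. The same deposited table gave -0.30 (SE 0.25) for Fst, -0.23 (SE 0.14) for Smad6, 0.03 (SE 0.13) for Smad7, -0.01 (SE 0.12) for Id2 and 0.35 (SE 0.61) for Id4.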

How the data were processed

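Libraries of poly(A) RNA from C2C12 myotubes were analysed, 3 with TWEAK and 3 untreated. The submitters' processing notes name build GRCm39 and the tools STAR 2.6.0c, Trim Galore 0.5.0, DESeq2 1.22.2 and HTSeq 0.6.1p2, without a role or settings; strand use is not given in the sources used here. In the authors' deposited table, expression is FPKM per library, per the file headers. It also holds the authors' own comparison: a mean normalized count (a signal per gene), log2 fold changes with standard errors, a test score, and unadjusted and adjusted p-values, per the file headers. The number of value columns without a sample was 0.

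FPKM are not counts, so limma-trend (limma 3.58.1, R 4.3.3) was run on log2(FPKM + 1) for 12770 genes with a mean of at least 0.5 FPKM, with group as the only term. Tests were two-sided, with Benjamini-Hochberg adjustment over all 12770 genes at 0.05. Folds are ratios of mean FPKM. The script was tested on simulated data. Reads were recovered from the deposited FPKM, each being a whole number of reads times a library factor over a gene length. With a relative tolerance of 1e-06, each of the 126386 values above 0 was whole, and for 296 tested genes, none of them among the 10, a common factor was chosen by assumption. Reads gave depth, 95% exact binomial intervals and limma-voom as an alternative. Tables, intervals and figures were made with Python 3.11.15, numpy 2.4.6, pandas 2.3.3, scipy 1.17.1 and matplotlib 3.10.9.

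As a check of pairing, each library's deviation from its group mean was correlated over genes. The r was 0.473 in trial 1, 0.218 in trial 2 and 0.434 in trial 3, and no higher than -0.02 across trials. On that ground, which comes from the values alone, trial numbers were treated as pairs in the trial ratios and the replicate block. The main test kept group as its only term, so its calls, and the genes said not to pass, leave the pairing out.

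The 10 genes, the gene lists and the rule for named genes were chosen with earlier results of these data known. The rule named all 10 genes, up to 6 called and 2 uncalled genes of each list, and the 3 genes most like each of Id1, Id3, Bmp4 and Nog, predicted gene models and the 10 genes left out. A gene that the rule names is in the counts and is not reported here by itself. Promoter sequences are RefSeq's, GRCm38.p6, and their coordinates are separate from those of the files.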

Additional observations from a re-analysis of the deposited data

How the results depend on the processing

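The 1926 genes that passed became 801 without the filter on low values, 3563 with the replicate block, and 844 to 2101 without 1 library, the smallest number without TWEAK replicate 2. The 5 other BMP pathway genes that fell became 2 without the filter, 10 with the block and 1 to 5 without 1 library (1 without TWEAK replicate 2 or untreated replicate 2, 2 without TWEAK replicate 1 or untreated replicate 1, 3 without untreated replicate 3). The 2 that rose stayed at 2 or 3 in number in all alternatives run. Pseudocounts of 0.1 and 5, a minimum of 2 FPKM, rescaling to TPM and limma-voom on recovered reads left all 3 counts within 1.5 times. Of the 19 called pathway, activin and bHLH genes, 11 lost the call under some alternative, 8 kept it under every one, and 0 turned direction. Without the filter, the adjusted p was 0.0514 for Nbl1, and after rescaling to TPM it was 0.0661 for Tgif1, 0.058 for Tcf3 and 0.0633 for Tcf12. The causes were not tested. Beyond the counts given here and in the report, the replicate block ended none of these 19 calls.

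Over the alternatives, the log2 difference ran from -0.68 to -0.51 for Bmp4, -0.95 to -0.67 for Id1, -0.76 to -0.60 for Id3 and -1.85 to -0.38 for Nog, whose value follows the pseudocount because it is near 0. Fst ran from -0.45 to -0.21, and Id2 and Smad7 crossed 0 (-0.09 to 0.07 and -0.06 to 0.11). Depth limits Id4, Smad9 and Nog, whose intervals cover counting error only.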
